A study of Mus musculus with 4 samples.

Results

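The genes described here are 6 transcription factors of cartilage, Sox9, Sox5, Sox6, Nkx3-2, Mef2c and Runx3, chosen by name. They are 6 of the 26600 genes that all 4 single-cell count tables list, and each table holds a row for each of them. The tables come from Col2:Td mice (Col2-Cre Rosa26 lsl-tdTomato, strain label B6SJL/F1), in which Cre under the Col2 promoter turns on the Td reporter for good in cells that use this promoter, so that their descendants carry it too. All groups carry both alleles, the labels name no treatment, and the groups differ by age, with male mice of 1 month (2 mice), 1.5 months, 3 months and 16 months (3 mice each). The mice of an age were pooled and sequenced as 1 library, so no age has a replicate, no test between ages was possible, contrasts between cell classes were described without a test, and all intervals given below cover counting error only. Cells came from the endosteal marrow of long bones, released by protease digestion of metaphyseal fragments after the epiphyses were cut off, and were sorted for Td. The cartilage described is therefore what this digestion set free near the growth plate, and the reporter marks a history of Col2 activity rather than a present cell type.

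The tables held 8417, 5745, 4516 and 9229 barcodes from the youngest to the oldest library, with median depths between 5998.5 and 10238 unique molecular identifiers (UMIs) per barcode. After filtering, 563, 2040, 895 and 117 chondrocyte-like cells and 1593, 2909, 1621 and 4749 other mesenchymal cells remained. The 8 markers that named the chondrocyte-like cells (Col2a1, Acan, Col9a1, Col9a2, Col9a3, Col11a2, Hapln1 and Matn3) were all detected in them in every library, at a summed 42509, 77765, 56772 and 12929 CPM (the UMIs of a gene in a class divided by all UMIs of that class, times 1e+06). The oldest library stands apart, since its table lists 31054 genes where the others list 27999 and only 66.6% of its barcodes passed the filter, and its chondrocyte-like cells held much less Col2a1 than those of the other libraries. The youngest library holds much neutrophil RNA, with 6 neutrophil markers summing to 12285 CPM in its chondrocyte-like and 12202 CPM in its other mesenchymal cells, and to 151 to 1579 CPM in chondrocyte-like cells of the other libraries. The 3 younger libraries shared 30 to 61 barcodes per pair and only 1 or 2 each with the oldest, whose barcodes look like another set, although the design text names 1 chemistry for all. Neutrophil-like cells should hold none of the SOX factors, and their levels are given as a guide to free RNA. The 43 neutrophil-like cells of the 1.5 month library are no such guide, because they held Col2a1 at 28015 CPM.

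SOX9 is the transcription factor without which no cartilage forms. It binds, with SOX5 and SOX6, which lack an activation domain of their own and bind beside it, to enhancers of the genes of cartilage matrix such as Col2a1 and Acan. NKX3-2 acts early in the commitment to cartilage and holds back hypertrophy. MEF2C and the RUNX factors act at the other end, where growth plate chondrocytes leave the cell cycle, enlarge and turn on Ihh, Col10a1 and later Mmp13. A growth plate runs from resting cells, which express Pthlh, through columns of cycling cells to hypertrophic cells at the border with bone.

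On GRCm38 (GENCODE M21), all 6 are protein-coding genes. Sox9 lies on chr11:112782224-112787760 (plus strand), Sox5 on chr6:143828425-144781977 (minus), Sox6 on chr7:115470872-116038796 (minus), Nkx3-2 on chr5:41761483-41764501 (minus), Mef2c on chr13:83504034-83667080 (plus) and Runx3 on chr4:135120652-135177990 (plus). The span of Sox5 is 953553 bases, against 5537 for Sox9. Of 10 genes that overlap a member, 1 shares exon bases with it, Sox5os1, the antisense gene of Sox5.

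RefSeq (GRCm38.p6) gave 300-base windows around the starts of 5 members, from 250 bases before to 50 after a start, 6 for Sox6, 3 for Mef2c, 2 for Runx3 and 1 each for Sox5 and Nkx3-2. Each was searched on both strands for the letters of SOX sites (ACAAAG, in 18.7% of all 32851 mouse windows, and ACAATG, in 12.6%), RUNX sites (TGTGGT, 16.8%), GATA sites (AGATAA, 11.2%) and MEF2 sites (TATTTATA, 1.70%). The windows below are shown because Sox5 and Sox6 are the partners of Sox9 in chondrocytes, because Sox6 was also high in cells with erythroid markers, a lineage whose factor GATA1 binds GATA sites, and because Mef2c and Runx3 are the members nearest to hypertrophy. Capitals mark the matches on either strand, and sequences read 5′ to 3′ on the strand of the gene.
Sox5, inner start, chr6:143947057-143947356, minus strand: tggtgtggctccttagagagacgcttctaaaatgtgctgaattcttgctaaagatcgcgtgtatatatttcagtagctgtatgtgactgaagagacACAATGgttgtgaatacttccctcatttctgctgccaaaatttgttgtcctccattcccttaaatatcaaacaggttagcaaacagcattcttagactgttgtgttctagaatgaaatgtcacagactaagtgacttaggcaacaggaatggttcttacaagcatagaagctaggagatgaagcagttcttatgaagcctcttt
Sox6, inner start, chr7:115846091-115846390, minus strand: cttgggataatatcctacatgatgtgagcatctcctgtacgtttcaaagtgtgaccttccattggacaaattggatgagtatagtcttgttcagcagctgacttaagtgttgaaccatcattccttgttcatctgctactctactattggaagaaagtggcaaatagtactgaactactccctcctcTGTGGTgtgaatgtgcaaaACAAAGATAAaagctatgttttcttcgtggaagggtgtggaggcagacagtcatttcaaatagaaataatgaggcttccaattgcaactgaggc
Mef2c, first start, chr13:83503784-83504083, plus strand: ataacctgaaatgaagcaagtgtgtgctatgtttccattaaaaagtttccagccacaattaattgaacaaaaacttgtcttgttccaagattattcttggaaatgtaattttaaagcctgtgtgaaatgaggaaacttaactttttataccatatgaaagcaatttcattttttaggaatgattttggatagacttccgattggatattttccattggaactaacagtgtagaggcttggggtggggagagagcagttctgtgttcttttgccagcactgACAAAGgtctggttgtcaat
Runx3, first start, chr4:135120395-135120694, plus strand: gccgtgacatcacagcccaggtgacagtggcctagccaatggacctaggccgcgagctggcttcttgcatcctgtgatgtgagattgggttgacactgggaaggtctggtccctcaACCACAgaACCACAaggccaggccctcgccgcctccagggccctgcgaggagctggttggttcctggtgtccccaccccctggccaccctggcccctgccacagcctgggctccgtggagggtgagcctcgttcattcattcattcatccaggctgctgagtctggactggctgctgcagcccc
The Sox5 window holds the second SOX form at base 97. The Sox6 window holds the RUNX letters at base 188 and the SOX letters at 207, which overlap the GATA letters at 211. No other Sox6 window holds the GATA letters. The window of Nkx3-2, a gene hardly detected in these libraries, also holds them, at base 255. The Mef2c window holds the SOX letters at base 281, and that of Runx3 holds the RUNX letters on the other strand at bases 117 and 125. None of the members' windows holds the MEF2 letters, and a match of this kind is a run of letters and no evidence of binding.

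Sox9, Sox5 and Sox6 were each higher in chondrocyte-like than in other mesenchymal cells of every library. The Sox9 level in chondrocyte-like cells was 345 CPM (332 to 358) at 1 month, 583 CPM (574 to 591) at 1.5 months, 736 CPM (717 to 756) at 3 months and 1242 CPM (1189 to 1298) at 16 months. In the other mesenchymal cells, which are progenitors, cells of the adipocyte lineage, osteoblasts and osteocytes, it was 55.2, 83, 69.5 and 101 CPM. The ratio was 6.24 (5.8 to 6.73), 7.02 (6.72 to 7.35), 10.6 (9.82 to 11.5) and 12.3 (11.6 to 12.9), and the lowest chondrocyte level lay above the highest level of the other cells. A gene was counted as higher or lower when its levels differed at least 2-fold with 95% Poisson intervals that did not overlap and at least 10 UMIs in the higher group, among genes with at least 2 CPM and 10 UMIs in either group. By this rule 3, 4, 4 and 5 of the 6 members were higher in chondrocyte-like cells at 1, 1.5, 3 and 16 months, and 0 were lower. Over all genes taken, 8.37%, 10.9%, 10.9% and 10.3% were higher and 10.9%, 20.4%, 20.9% and 24.0% lower. Nkx3-2 never reached the minimum, so each count is over 5 measured members. Members and matrix genes were kept out of the genes that formed the clusters, but cells so grouped share their type, and these are contrasts between cell types rather than tests.

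Sox5 stood at 68.8, 80.3, 126 and 193 CPM in chondrocyte-like cells and at 11.8, 8.3, 7.84 and 15.8 CPM in the other mesenchymal cells, ratios of 5.84, 9.67, 16 and 12.2. Sox6 stood at 40.7, 43.2, 55.5 and 66.5 CPM against 9.01, 6.23, 6.44 and 3.49 CPM, ratios of 4.51, 6.94, 8.61 and 19. For both partners the 2 groups of cells did not overlap in any library, and the smallest ratio was that of the 1 month library. In neutrophil-like cells Sox5 was at 1.09, 1.96 and 2.89 CPM and Sox6 at 2.18, 3.09 and 0.963 CPM at 1, 3 and 16 months, below their levels in the other mesenchymal cells.

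The 1 month values hold some cells of another kind. Clustering of the chondrocyte-like cells left stage clusters 7, 8 and 10 unnamed, whose raised markers include those of blood cells, osteoblasts and the adipocyte lineage and which hold 176 of the 563 cells at 1 month. Stage cluster 8 of that library (68 cells) had the 8 chondrocyte markers at 680.1 CPM, osteoblast markers at 42463 CPM and Sox9 at 35 CPM, so these cells go against their class. Stage cluster 7 (99 cells) does not, with chondrocyte markers at 60846 CPM, osteoblast markers at 2307 CPM, neutrophil markers at 13885 CPM and Sox9 at 352 CPM. Without the 3 clusters Sox9 was at 417 CPM, Sox5 at 84.2 and Sox6 at 46.1 CPM at 1 month, and the same 3 members were higher than in other mesenchymal cells.

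Whether Sox9 is found in the same cells as a partner, Sox5 or Sox6, was read after each cell was thinned to 3000 UMIs. UMIs of Sox9 and of Sox5 or Sox6 were found together in 17.1% (14 to 20.4) of chondrocyte-like cells at 1 month (n = 563), 23.8% (21.9 to 25.7) at 1.5 months (n = 2040), 33.9% (30.8 to 37.2) at 3 months (n = 870) and 36.3% (27.4 to 45.9) at 16 months (n = 113), with 95% Clopper-Pearson intervals in parentheses. Cells under 3000 UMIs, 25 at 3 months and 4 at 16 months, were left out. Before thinning these shares were 60.7%, 75.3%, 69.4% and 82.1%, so the thinned shares are set by depth as well as by expression and are no count of expressing cells. The product of the single shares was 14.6%, 22.9%, 33.4% and 36.7%, inside all 4 intervals. The joint share lay above the product at 1, 1.5 and 3 months and below it at 16 months. The intervals take no account of the single shares coming from the same cells. They therefore cannot decide whether Sox9 and its partners were detected independently, which was not tested. In neutrophil-like cells the joint share was 0.161%, 0% and 0.429% at 1, 3 and 16 months, where their median depths were 11675.5, 6076 and 5885 UMIs against 12443, 8380 and 12944 in chondrocyte-like cells, and in adipocyte-lineage-like (AD-like) cells it was at most 1.11%. UMIs of all 3 genes were found in 1.78%, 2.5%, 4.48% and 7.08% of chondrocyte-like cells (unthinned 20.6%, 29.4%, 22.3% and 44.4%), and the intervals of the stages overlapped in each library. By stage, resting-like cells had Sox9 with either partner most often in the 3 younger libraries, at 22.1%, 31% and 39.4%, against 16.9%, 18.6% and 30.6% of hypertrophic-like cells, and the intervals of resting-like and hypertrophic-like cells were apart at 1.5 months alone.

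**Figure D1:**
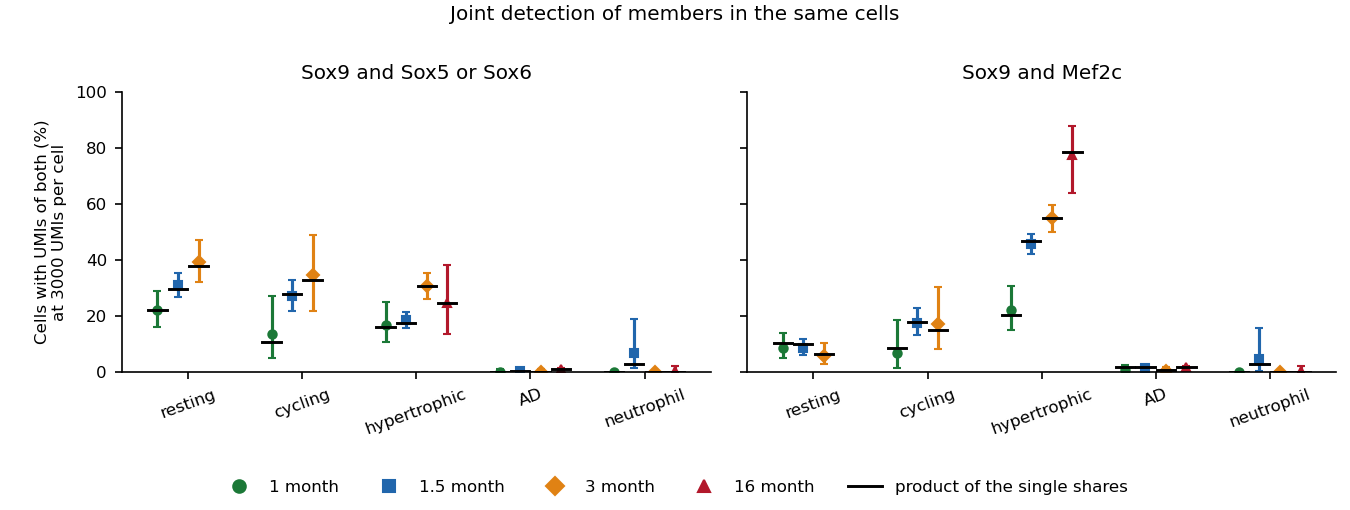
Share of cells, in percent, with UMIs of Sox9 and of Sox5 or Sox6 (left) and of Sox9 and Mef2c (right), at 3000 UMIs per cell, for 3 chondrocyte stages, AD-like and neutrophil-like cells. Points are libraries, whiskers are 95% Clopper-Pearson intervals and black bars are the product of the single shares. Sox9 and Mef2c met in 5.88% to 8.84% of resting-like cells and in 22% to 77.4% of hypertrophic-like cells.

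The chondrocyte-like cells held clusters with raised markers of resting cells (such as Sfrp5, Ucma and Clu), of cycling cells (such as Top2a and Cdk1) and of prehypertrophic and hypertrophic cells (such as Ihh, Col10a1 and Panx3). Resting-like cells numbered 181, 448, 186 and 26 from the youngest to the oldest library, cycling-like cells 44, 265, 52 and 1, and hypertrophic-like cells 118, 774, 415 and 57. Stage cluster 1, led by Gdf10, C1qtnf3, Epyc and Prelp among others, met no stage's rule and is described by number. At 16 months resting-like and cycling-like cells were under 30, and no stages were compared there.

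Mef2c was several times higher in hypertrophic-like than in resting-like cells, the largest difference of any member between stages. In resting-like cells it was at 56.1 (46.1 to 67.5), 53.6 (47.4 to 60.4) and 22 (14.4 to 32.2) CPM at 1, 1.5 and 3 months, in stage cluster 1 at 74.5, 146 and 172 CPM, and in hypertrophic-like cells at 233 (211 to 256), 435 (423 to 446) and 603 (578 to 628) CPM. Hypertrophic-like cells were above resting-like cells 4.15 (3.36 to 5.16), 8.11 (7.17 to 9.2) and 27.4 (18.7 to 42.1) times, with no overlap in any library. The last ratio rests on 26 Mef2c UMIs in the resting-like cells of the 3 month library. Mef2c was the 1 member of 6 counted as higher in each of these libraries, where 1.91%, 3.48% and 3.74% of all genes were. At 16 months the 57 hypertrophic-like cells held Mef2c at 1461 CPM (1361 to 1566), and the 26 resting-like cells held it at 154 CPM. Markers of osteoblasts, a class with high Mef2c, summed to 4605, 3795 and 2501 CPM in resting-like and 5416, 4831 and 11638 CPM in hypertrophic-like cells; their part in the Mef2c difference was not tested.

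The hypertrophic-like cells were themselves of several clusters, and Mef2c differed among them. Stage cluster 3, led by Aldh1a3, Krtap17-1 and Col10a1 among others, held Mef2c at 698 and 921 CPM at 1.5 and 3 months, stage cluster 0 at 362 and 517 CPM, and stage cluster 5 at 265 and 272 CPM. The order of the 3 clusters was the same at both ages and their intervals did not overlap. Ihh, the signal of prehypertrophic cells, was also highest in stage cluster 3, at 708 and 539 CPM, against 211 and 216 in stage cluster 0 and 184 and 88.7 in stage cluster 5. Col10a1 was highest in stage cluster 3 as well, at 19119 and 7313 CPM. The others came in another order, with 6888 and 3695 CPM in stage cluster 5 above the 619 and 94.1 CPM of stage cluster 0. Col10a1 and Ihh named these clusters, so their levels are descriptions. At 1.5 months resting-like stage cluster 4 held Col10a1 at 735 CPM (694 to 779), above stage cluster 0, but Ihh at 42.9 CPM. At 1 and 3 months its Col10a1 was lower, at 4.6 and 52.1 CPM against 81.8 and 94.1 CPM, with overlapping intervals at 3 months. At 1 month, where stage cluster 3 had under 30 cells, Mef2c was at 233 (194 to 277) CPM in stage cluster 0 and 145 (119 to 175) CPM in stage cluster 5. At 16 months stage cluster 3 alone had 30 cells, with Mef2c at 1725 CPM and Ihh at 1102 CPM. Among resting-like cells, stage cluster 2 held less Mef2c (41.4, 32.8 and 13.7 CPM at 1, 1.5 and 3 months) than stage cluster 4 (74.8, 98.4 and 45.6 CPM). The latter has 6 neutrophil markers called raised with the libraries pooled, and their part in its Mef2c was not tested.

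**Figure D2:**
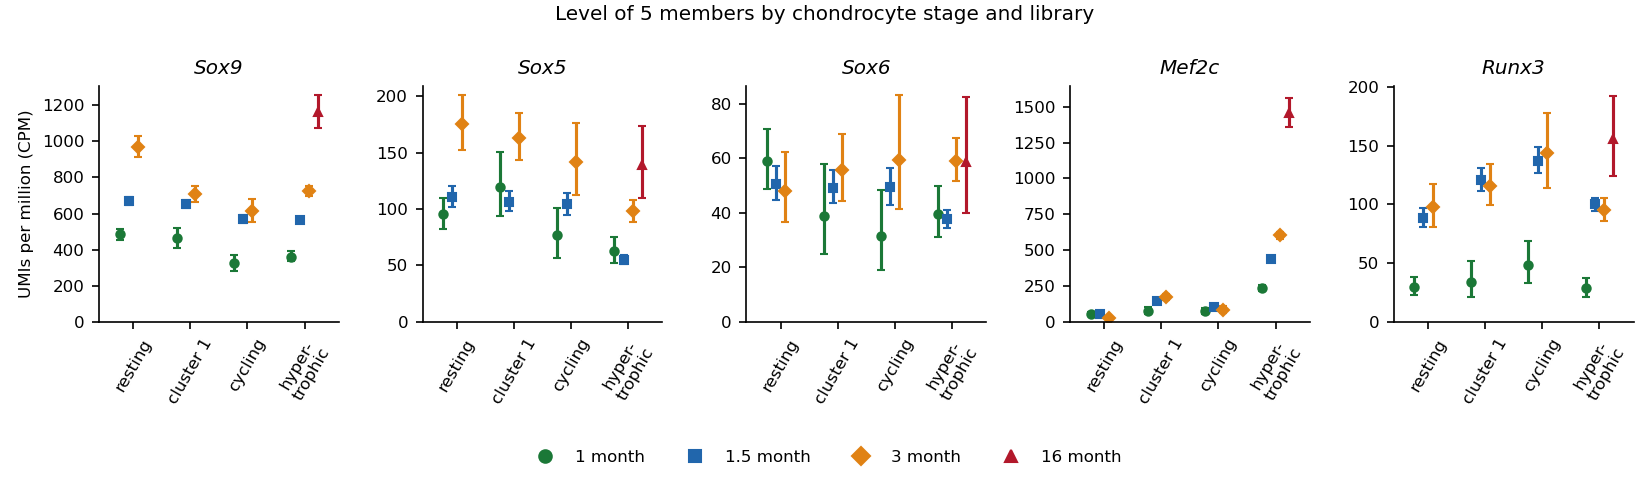
Level of 5 members, in CPM (linear axes from 0), in resting-like cells, stage cluster 1, cycling-like and hypertrophic-like cells, by library. Points are pooled levels of a class in 1 library and whiskers are 95% Poisson intervals. Mef2c was highest in hypertrophic-like cells at 1, 1.5 and 3 months, from 233 to 603 CPM, hypertrophic-like cells alone are drawn at 16 months, and Sox5 was lower there than in resting-like cells at 1, 1.5 and 3 months.

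The SOX trio was present in all stages. Sox9 was at 485, 667 and 971 CPM in resting-like cells and at 361, 563 and 723 CPM in hypertrophic-like cells, ratios of 0.745, 0.843 and 0.744. This direction rests on 1 of the 2 resting clusters, since Sox9 in resting stage cluster 4, at 287 (252 to 324), 456 (424 to 491) and 579.8 (498 to 672) CPM, was below the hypertrophic-like level in all 3 libraries with no overlap. Sox5 was at 95.5, 110.4 and 176 CPM against 62.6, 55 and 97.9 CPM, ratios of 0.656 (0.515 to 0.832), 0.498 (0.444 to 0.559) and 0.557 (0.469 to 0.663). For Sox5 the pooled stages did not overlap in any of these libraries, but against stage cluster 4 alone (67.9, 78.8 and 114 CPM) the intervals overlapped at 1 and 3 months. By the rule, 0, 1 and 0 of the 6 members were lower in hypertrophic-like cells, the 1 being Sox5 at 1.5 months, where 3.38%, 8.27% and 5.80% of all genes were. That ratio sits at the edge of the rule, and the count was 0 with a limit of 10% mitochondrial UMIs or with 20 components and 2 with stage cluster 2 alone as resting-like. Sox6 was at 59.1, 50.6 and 48.2 CPM against 39.5, 37.6 and 59.2 CPM, and its ratio lay below 1 at 1 and 1.5 months and above it, within counting error of 1, at 3 months (1.23 (0.915 to 1.67)).

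Within the resting-like cells Sox9 and Sox5 were not even. Stage cluster 2, led by Sfrp5, Pcp4 and Cpm among others, held Sox9 at 640.4, 765 and 1108 CPM and Sox5 at 117, 125 and 197 CPM at 1, 1.5 and 3 months. Stage cluster 4, led by Sparcl1, Clu and Slc40a1 among others, held Sox9 at 287, 456 and 579.8 CPM and Sox5 at 67.9, 78.8 and 114 CPM. Stage cluster 2 was above stage cluster 4 for both genes in all 3 libraries with no overlap of intervals. Sox6 did not follow, at 45.9, 45.4 and 42.2 CPM in stage cluster 2 and 76, 61.8 and 65.2 CPM in stage cluster 4. The cells of stage cluster 4 had a median depth of 0.619 of the median of the chondrocyte-like cells of their libraries. Its neutrophil markers were called raised with the libraries pooled. By library these markers summed to 12186, 202 and 1592 CPM in all resting-like cells at 1, 1.5 and 3 months. Hypertrophic-like cells held 12567, 202 and 1600 CPM. The part of depth and of neutrophil RNA in the lower Sox9 was not tested.

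Cycling-like cells differed from resting-like cells by less than 2-fold in most members. Sox9 was at 324, 569 and 613 CPM, Sox5 at 76.7, 104 and 142 CPM and Sox6 at 31.3, 49.3 and 59.6 CPM. By the rule 0, 0 and 1 of the 6 members were higher than in resting-like cells, where 6.13%, 6.55% and 7.11% of all genes were, and 0 were lower, where 2.84%, 5.03% and 3.91% were. The 1 was Mef2c at 3 months, at 78.9 CPM from 45 UMIs and a ratio of 3.59 (2.17 to 6.06), and at 1 and 1.5 months its ratio was 1.28 and 1.91. At a clustering resolution of 1.2 the log2 ratio at 3 months was 0.48 and no longer counted.

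Runx3, a RUNX factor of chondrocyte maturation and of T cells, had its highest chondrocyte level in cycling-like cells of the 3 younger libraries, at 48.5 (33 to 68.8), 137 (127 to 149) and 144 (114 to 178) CPM. Resting-like cells held 29.8, 88.6 and 98 CPM and hypertrophic-like cells 28.6, 100.1 and 95 CPM. The ratio of hypertrophic-like to resting-like cells was 0.958 (0.647 to 1.41), 1.13 (1.01 to 1.26) and 0.969 (0.784 to 1.2), so a difference of 2-fold between the pooled stages lies outside each interval. Within the stages Runx3 was not even at 1.5 and 3 months. Hypertrophic-like stage cluster 0 held 131 and 119 CPM, against 69.7 and 64.5 CPM in stage cluster 3. Resting-like stage cluster 2 held 99.0 and 116 CPM, against 66.2 and 45.6 CPM in stage cluster 4. Neither pair of clusters overlapped at these ages. The ratio of cycling-like to resting-like cells was 1.63 (1.02 to 2.55), 1.55 (1.37 to 1.76) and 1.47 (1.09 to 1.96), above 1 in each library and not counted. Stage cluster 1, at 34, 121 and 116 CPM, overlapped the cycling-like cells in all 3. Against the other mesenchymal cells Runx3 was at 30.2, 105, 102 and 144 CPM in chondrocyte-like cells and 17.2, 27.9, 29.4 and 44.4 CPM in the others, ratios of 1.76, 3.77, 3.45 and 3.23, of which the first was not counted. Outside cartilage it was at 76 CPM in T or NK-like cells of the 1 month library, which overlapped its cycling-like chondrocytes, and at 35.1 to 47.8 CPM in AD-like cells of the 4 libraries.

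Nkx3-2, the early repressor of hypertrophy, was hardly detected in these libraries. All cells that passed the filter held 2, 13, 5 and 5 UMIs of it, of which chondrocyte-like cells held 1, 10, 1 and 4. The chondrocyte level was 0.132 (0.00334 to 0.735), 0.334 (0.16 to 0.614), 0.131 (0.00333 to 0.732) and 2.46 (0.671 to 6.31) CPM. Its highest level in any class was 3.66 (0.443 to 13.2) CPM, from 2 UMIs in the hypertrophic-like cells of the 16 month library. No stage can be ranked at this depth, and the gene passed the minimum for no comparison.

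Sox9 was also found outside cartilage, in mesenchymal progenitors and adipocyte-lineage cells. In late mesenchymal progenitor-like (LMP-like) cells it was at 94.4, 126, 121 and 166 CPM, in early mesenchymal progenitor-like (EMP-like) cells at 49.5, 95.9, 96.5 and 72.9 CPM, and in AD-like cells at 56, 77.3, 57.9 and 124 CPM. Osteoblast-like (OB-like) cells held 16.9, 42, 29.3 and 15.9 CPM, less than each of these classes in every library. Neutrophil-like cells held 4.4, 14 and 23.1 CPM at 1, 3 and 16 months. The ratio of Sox9 to Col2a1 in chondrocyte-like cells was 12.8, 12.6, 23.1 and 333 Sox9 UMIs per 1000 Col2a1 UMIs. It serves as a scale for the other classes, and the part of free RNA in their Sox9 was not tested. Against the Sox9 UMIs that this ratio gives for a class's Col2a1, LMP-like cells held 8.95, 4.19, 4.86 and 76.4 times as many, EMP-like cells 24.1, 4.57, 7.51 and 102 times and AD-like cells 13.4, 2.31, 6.37 and 44.8 times. Neutrophil-like cells held 1.36 (1.12 to 1.63) times at 1 month and 1.23 (0.911 to 1.62) at 3 months, and those of 1.5 months are no guide here either.

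At 16 months this comparison is of less use. There the neutrophil-like cells held 12 times the Sox9 that their Col2a1 gives, with markers of AD-like cells, 3094 of the library's 6143 cells, at 4744 CPM. The Sox9 of AD-like cells in that library, 124 (120.1 to 128) CPM, was above the 23.1 (17 to 30.7) CPM of its neutrophil-like cells. OB-like cells of the same library held Col2a1 at 1104 CPM with Sox9 at 15.9 CPM, 0.0431 times the number given by the chondrocyte ratio. After thinning, 11.1%, 18.4%, 12.6% and 21.8% of AD-like cells had a Sox9 UMI (unthinned 27.3%, 28.2%, 14.9% and 43%), against 0.913%, 4.21% and 3.86% of neutrophil-like cells at 1, 3 and 16 months.

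**Figure D3:**
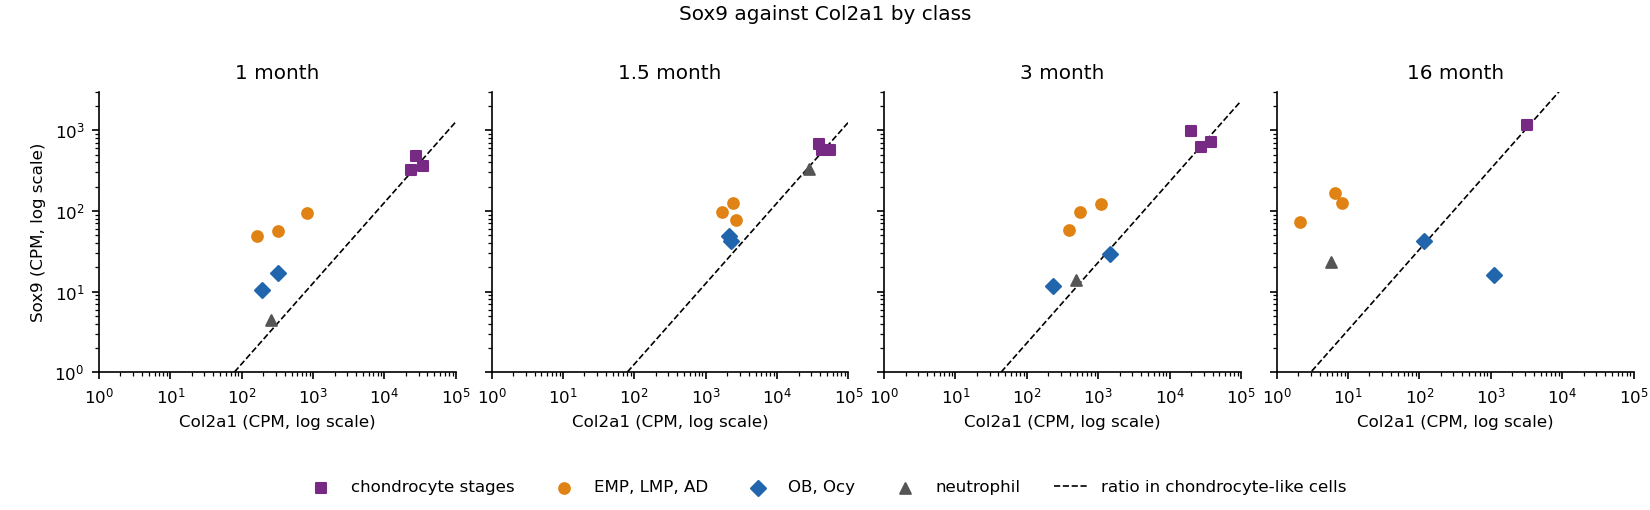
Sox9 against Col2a1, both in CPM on log axes, in 1 panel per library. Points are chondrocyte stages, progenitor and adipocyte-lineage classes (EMP, LMP, AD), OB and Ocy classes and neutrophil-like cells, and the dashed line is the ratio in chondrocyte-like cells. EMP-like, LMP-like and AD-like cells lie above the line in all 4 libraries. They do so by 2.31 to 24.1 times in the 3 younger libraries and by 44.8 to 102 times in the oldest. Neutrophil-like cells were at 1.36 and 1.23 times the line at 1 and 3 months. In the oldest library neutrophil-like cells lay well above the line too, so the comparison is of less use there.

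Outside cartilage, and apart from the neutrophil-like cells of 1.5 months that held Col2a1, Sox5 was highest, among named classes with at least 30 cells, in mural and progenitor cells. It was at 15.9, 12, 45.3 and 19.3 CPM in EMP-like cells and at 15.9, 14.6, 13.7 and 22 CPM in LMP-like cells. Mural-like cells held it at 34.2 (18.7 to 57.3) CPM at 1.5 months and 61.4 (24.7 to 127) CPM at 3 months, the latter from 7 UMIs, which overlaps the level of EMP-like cells. AD-like cells held Sox5 at 3.79, 5.27 and 5.74 CPM in the 3 younger libraries and at 18.2 (16.7 to 19.7) CPM at 16 months.

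Sox6, which besides cartilage acts in red cell maturation, had its highest level in cells with erythroid markers at 1 and 16 months. Clusters 9 and 17 of the 1 and 1.5 month libraries express 6 of 6 erythroid markers but kept a number under the naming rule, and are led by Hemgn, Klf1 and Car1 and by Tmcc2, Slfn14 and Bpgm among others. At 1 month Sox6 was at 168 CPM (159 to 178) in cluster 9, from 1272 UMIs in 619 cells, and at 89.2 CPM (77.5 to 102) in cluster 17. Both lay above the 59.1 (48.9 to 70.8) CPM of resting-like chondrocytes. Erythroid-like cells held 72.8 (56 to 92.9) CPM at 3 months, which overlaps all chondrocyte stages, and 138 (124 to 152) CPM at 16 months, above hypertrophic-like chondrocytes at 58.5 (40.0 to 82.6) CPM. Sox9 in the same clusters was at 3.97 and 2.55 CPM at 1 month and Sox5 at 1.98 and 0.425 CPM, near their levels in neutrophil-like cells. The 1272 UMIs of cluster 9 were most of the 2168 Sox6 UMIs in the filtered cells of the 1 month library, while chondrocyte-like cells held 308 of them.

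Mef2c was broadly expressed. Osteocyte-like (Ocy-like) cells held it at 1019, 1003, 1135 and 1421 CPM, the highest level of any class at 1, 1.5 and 3 months, and at 16 months 1421 (1329 to 1519) CPM overlapped the 1461 (1361 to 1566) CPM of hypertrophic-like chondrocytes. OB-like cells held 328, 336, 444 and 578 CPM. MEF2C controls the bone enhancer of Sost in osteocytes and has roles in lymphoid and vascular cells, and Mef2c was at 347 CPM in basophil or mast-like cells and 286 CPM in B-lineage-like cells at 1 month, at 211 to 228 CPM in endothelial-like cells of the 4 libraries and at 249 and 395 CPM in mural-like cells at 1.5 and 3 months. Pooled chondrocyte-like cells were below the other mesenchymal cells at 1 month and above them later. Mef2c was at 134, 248, 363 and 674 CPM in chondrocyte-like and 229, 188, 275 and 154 CPM in the other cells, ratios of 0.586, 1.31, 1.32 and 4.39, of which the last was counted. With each of the other mesenchymal classes weighted alike, the log2 ratio at 16 months was 0.73 and no longer counted, and that at 1 month was -1.35 and counted as lower.

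**Figure D4:**
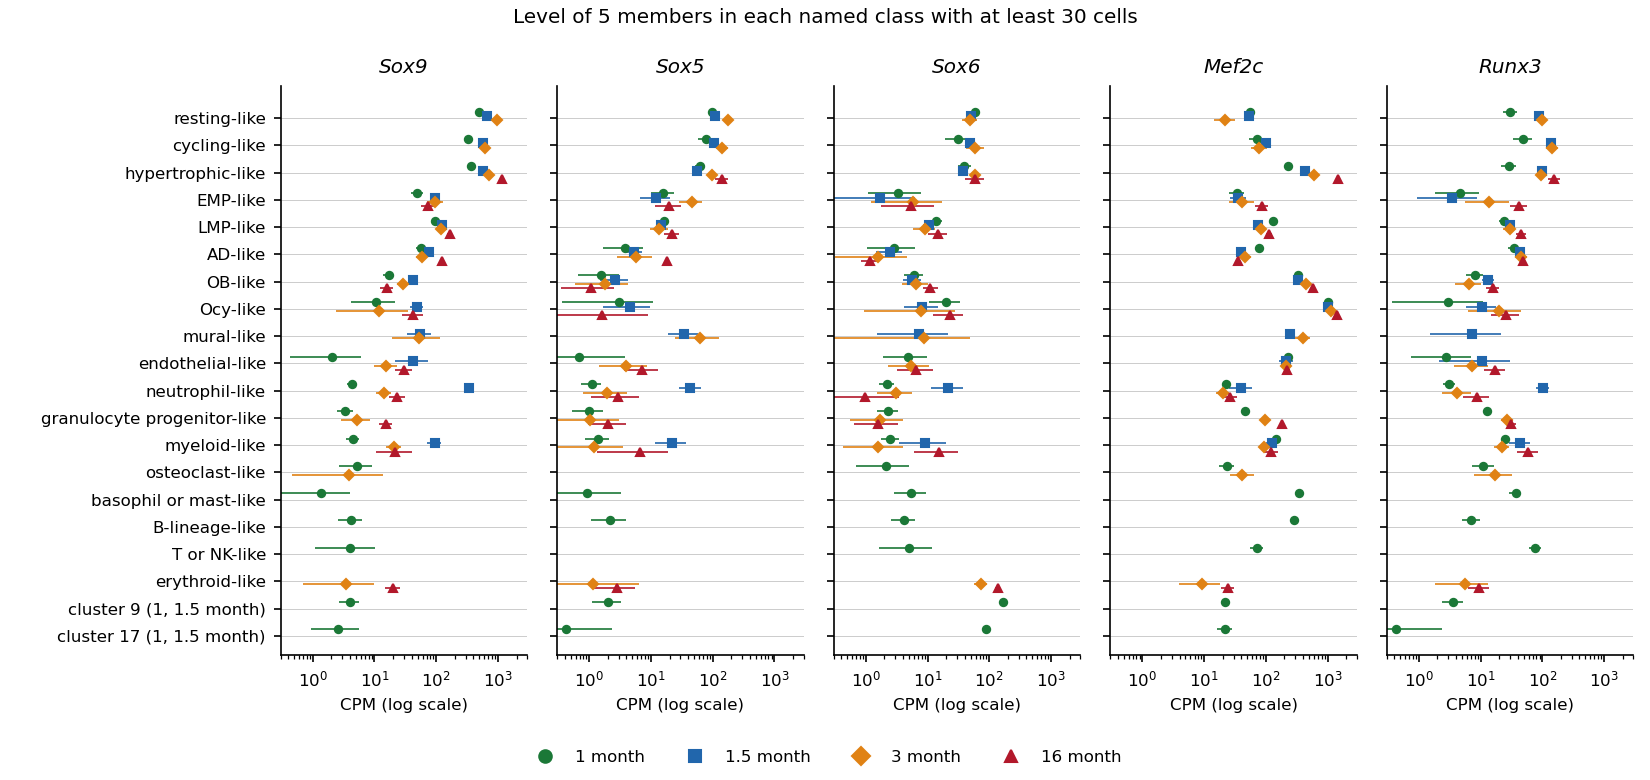
Level of 5 members, in CPM on a log axis, in each named class with at least 30 cells and in erythroid clusters 9 and 17, by library. Points are pooled levels, whiskers are 95% Poisson intervals and levels of 0 are not drawn. Sox9 and Sox5 were highest in the chondrocyte stages, Sox6 reached 168 CPM in cluster 9 of the 1 month library and Mef2c was at 1003 to 1421 CPM in Ocy-like cells.

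Between libraries the chondrocyte levels differed, and age, library, sort, preparation, barcode set and gene list cannot be told apart. The make-up of the class differed as well, with 118 of 563 cells hypertrophic-like at 1 month and 57 of 117 at 16 months, and Mef2c within hypertrophic-like cells was at 233 and 1461 CPM in these libraries. Between 1 and 16 months Sox9 stood at 1242 against 345 CPM (3.6 (3.4 to 3.82) times), Sox5 was 2.81, Mef2c 5.02 and Runx3 4.75 times higher at 16 months, and Sox6 was 1.64 (1.3 to 2.04) times higher and not counted. Thus 4 of the 6 members were higher and 0 lower, where 16.1% of all genes were higher and 17.9% lower. With all chondrocyte-like cells taken, the 4 libraries were in order of age for Sox9, Sox5 and Mef2c with no overlap of neighbours. Sox6 was in the same order, but its levels overlapped between 1 and 1.5 and between 3 and 16 months. The levels of Runx3 overlapped between 1.5 and 3 months. Without stage clusters 7, 8 and 10, Sox9 and Mef2c kept their order with no overlap, but Sox5 and Sox6 did not. Sox5 then stood at 84.2 CPM in the 1 month library against 83.5 CPM in the 1.5 month library. Sox6 stood at 46.1 against 44.2 CPM in the same libraries, and both pairs of intervals overlapped. Of the 16 matrix genes, 2 were higher at 16 months and 8 lower. Col2a1 was at 29665 CPM at 1 month and 3757 CPM at 16 months without stage clusters 7, 8 and 10, where Sox9 was at 417 and 1276 CPM, Mef2c at 124 and 744 CPM and Runx3 at 32.2 and 144 CPM. CPM are shares of a class's RNA, and the median log2 ratio over all genes taken was -0.13.

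Of the paralogs, Sox8, the relative of Sox9 in the SOXE group, was also higher in chondrocyte-like cells. It was at 20.2, 26.4, 27.2 and 48 CPM in chondrocyte-like cells and 5.2, 3.66, 2.89 and 2.0 CPM in other mesenchymal cells, ratios of 3.89, 7.21, 9.4 and 24. Sox4, a SOXC factor, had the opposite pattern, with ratios of 0.379, 0.262, 0.17 and 0.113. Of 11 paralogs, 7, 8, 6 and 6 passed the minimum in the 4 libraries, of which 2, 3, 1 and 1 were higher (Sox8, with Sox11 at 1 and 1.5 months and Sox10 at 1.5 months) and 2, 2, 1 and 2 lower (Sox4 and, except at 3 months, Runx1). Over all genes taken 8.37%, 10.9%, 10.9% and 10.3% were higher and 10.9%, 20.4%, 20.9% and 24.0% lower. Runx2, the RUNX factor of osteoblasts and hypertrophic chondrocytes, had ratios of 0.513, 0.672, 0.655 and 0.667, none counted, where Runx3 was counted as higher from 1.5 months on. Between hypertrophic-like and resting-like cells at 1, 1.5 and 3 months, 2, 1 and 3 paralogs were higher and 0, 1 and 0 lower. Over all genes taken, 1.91%, 3.48% and 3.74% were higher and 3.38%, 8.27% and 5.80% lower. The largest ratio at 1 and 3 months was that of Sox4, at 2.88 and 3.61, both counted. Sox8 was counted as higher at 3 months and Sox11 as lower at 1.5 months, at a ratio of 0.172. Runx2 was 2.22, 1.78 and 1.75 times the resting level, counted at 1 month. Mef2d was 1.63, 2.36 and 2.06 times, counted at 1.5 and 3 months. Mef2a, at 0.98, 1.39 and 1.86 times, was not counted.

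Among partners and repressors, Hdac4, the deacetylase that holds MEF2C inactive in chondrocytes before hypertrophy, was lower in hypertrophic-like than in resting-like cells, at 10.9 against 28.8 CPM at 1.5 months and 16 against 40.6 CPM at 3 months, both counted. At 1 month the ratio was 0.595 and not counted. Hdac7 was lower in chondrocyte-like than in other mesenchymal cells of all 4 libraries, with ratios of 0.387, 0.20, 0.155 and 0.14, and Hdac5 in the 3 older ones, so that 1, 2, 2 and 2 of the 4 partners that passed the minimum were lower and 0 higher, beside 10.9%, 20.4%, 20.9% and 24.0% lower over all genes taken. The ratio of Hdac7 at 16 months rests on 6 UMIs in chondrocyte-like cells. Cbfb, the partner of all RUNX factors, was within 2-fold in every comparison and had a ratio of 1.66, 1.62 and 1.65 in cycling-like over resting-like cells, where Runx3 was also above 1.

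The matrix genes that the SOX trio drives were higher in chondrocyte-like cells with it, and between stages most differed by less than 2-fold. Of 16 matrix genes, 16, 16, 16 and 15 passed the minimum and 15, 15, 14 and 14 were higher in chondrocyte-like than in other mesenchymal cells, but 8 of the 16 named the class and their difference is no finding. The share over all genes taken was 8.37%, 10.9%, 10.9% and 10.3% higher. Of the matrix genes that did not name the class, Cnmd was 65.6, 17.2, 55.3 and 1781 times higher, the last from 41 UMIs in the other cells, and Comp 8.59, 7.0, 8.23 and 40.6 times. Matn4, at ratios of 1.12, 1.21, 1.15 and 1.68, was counted in no library. Between hypertrophic-like and resting-like cells 1, 2 and 5 of the 16 were higher and 1, 0 and 1 lower, with medians of 0.47, 0.58 and 0.89 on the log2 scale beside -0.05, -0.13 and -0.10 over all genes taken. Of all genes, 1.91%, 3.48% and 3.74% were higher and 3.38%, 8.27% and 5.80% lower. Matn1, a matrilin of columnar cartilage, was 9.87, 2.39 and 8.4 times the resting level, and Matn4 0.37, 0.575 and 0.446 times.

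Of 9 hypertrophic genes downstream of MEF2C and RUNX factors, 8 passed the minimum in each library and 7, 6 and 6 were higher in hypertrophic-like than in resting-like cells at 1, 1.5 and 3 months, beside 1.91%, 3.48% and 3.74% over all genes taken. Col10a1, Ihh, Panx3, Mmp13 and Alpl named the stage, so their part of the count is no finding, and they are given for scale. Of the genes that did not name it, Ibsp and Spp1 were counted at 1 and 3 months and Ibsp and Vegfa at 1.5 months. Col10a1 was 185, 19.6 and 136 times the resting level where Mef2c was 4.15, 8.11 and 27.4 times. Ibsp, a bone matrix gene that named osteoblasts but not this stage, was 2.95, 2.53 and 3.51 times and counted in all 3, and Spp1 2.95, 0.989 and 3.9 times. Of 7 genes of the BMP, hedgehog and FGF pathways, 6 passed in each library. Among them 2, 4, 4 and 3 were higher in chondrocyte-like than in other mesenchymal cells and 0, 1, 1 and 0 lower. The shares over all genes taken were 8.37%, 10.9%, 10.9% and 10.3% higher and 10.9%, 20.4%, 20.9% and 24.0% lower. Fgfr3, which brakes chondrocyte growth, was higher in chondrocyte-like than in other mesenchymal cells of all libraries, with ratios of 3.24, 4.83, 3.28 and 5.59, as was Ptch1, the hedgehog receptor, at 4.05, 2.54, 4.33 and 3.29. Between hypertrophic-like and resting-like cells at 1, 1.5 and 3 months, 1, 1 and 1 of the 6 were higher and 1, 2 and 3 lower. The shares over all genes taken were 1.91%, 3.48% and 3.74% higher and 3.38%, 8.27% and 5.80% lower. Pth1r, higher, and Pthlh, lower, named these stages and are no finding. Gli1, a target of hedgehog signals, was 0.423, 0.263 and 0.156 times the resting level in hypertrophic-like cells, counted as lower at 1.5 and 3 months. Ptch1 was also counted as lower at 3 months.

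Over the 78 classes with at least 30 cells in a library, the levels of Sox9 and Sox5 were most alike among the members, with a Pearson r of 0.89 on log2(CPM + 1). Sox9 and Runx3 had an r of 0.68, Sox9 and Sox6 0.50, Sox5 and Sox6 0.58 and Sox9 and Mef2c 0.11. These points share libraries, free RNA and depth and several are stages of 1 cell type, so r is a description. Of 10905 genes at 20 CPM or more in some class, those most like Sox9 were Sdc4 (0.92), a cell surface proteoglycan, Slc35e3 (0.90) and Efcab1 (0.90), and those most like Sox5 were Mgp (0.91), an inhibitor of calcification in cartilage, Sox9, and Pde3a (0.89). For Sox6 they were Tmem56 (0.77), C1qtnf4 (0.72) and Spire1 (0.69), for Mef2c Fabp3 (0.73), Otud1 (0.72) and Pik3ip1 (0.71), and for Runx3 Pdcd4 (0.78), Acaca (0.77) and Psma8 (0.77).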

How the data were processed

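Td+ endosteal marrow cells of 4 ages were sequenced as 1 pooled library each. Per the labels, the authors used Cell Ranger 3.0.2 on the mm10 genome, to which they added the reporter, and the deposited values are raw UMI counts by gene and barcode. Barcodes were filtered to 200 to 6000 genes and no more than 5% of UMIs from mitochondria. They were clustered with Seurat 5.3.0 (R 4.3.3), with 2000 variable genes less the members, their paralogs, listed targets and naming markers, 30 components and a resolution of 0.8, after UMIs per cell and the mitochondrial share were regressed out. Canonical correlation joined the 2 youngest libraries, the others were clustered alone, and chondrocyte-like cells of all libraries were aligned and clustered again into stages. A class was named -like from at least 3 raised markers. Levels are summed UMIs as CPM with exact Poisson intervals (scipy 1.17.1, Python 3.11.15). Scrublet (scanpy 1.11.5) called 0, 98, 57 and 6 doublets, none of which was removed in the main analysis; leaving out the highest 8% of scores was an alternative. The call rule was tested on simulated data. The named genes are the members, fixed lists of paralogs, partners, targets and upstream genes, and the 3 genes most like each member. Members and lists were chosen with earlier results of these data known. Cnmd is Lect1 and Snorc 3110079O15Rik in the first 3 tables. A window for Sox9 was not used here.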

Additional observations from a re-analysis of the deposited data

How the results depend on the processing

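Among the log2 ratios of members recomputed under 80 listed alternatives and 9 added after the data were seen, 632 kept their side of the rule, 20 came to be counted, 8 were no longer counted and 0 of those counted turned direction. Among the levels, 479 stayed within their interval and 81 moved outside it. Members higher in hypertrophic-like cells (Mef2c) and members higher in chondrocyte-like cells kept their counts within 1.5 times. The count of members lower in hypertrophic-like than in resting-like cells, 1 in the report, was 0 with 10% mitochondrial UMIs, with 20 components, with a fold of 3 and without alignment, 2 without the highest 8% of Scrublet scores, at resolution 1.2 and with stage cluster 2 alone as resting-like, and 3 with a fold of 1.5. The count higher in cycling-like cells, 1 in the report, was 0 at resolution 1.2, 2 as a mean over cells, thinned to 3000 UMIs or with stage cluster 2 alone, and 3 with a fold of 1.5. The count lower in cycling-like cells, 0 in the report, was 1 without the highest Scrublet scores, with 20 components or as a mean over cells, and 2 with a fold of 1.5. The count lower in chondrocyte-like cells, 0 in the report, was 1 with a fold of 1.5 or with other mesenchymal classes weighted alike. The cause was not tested. The joint share of Sox9 with a partner was 9.06%, 14.8% and 21.6% at 1, 1.5 and 3 months with 2000 UMIs per cell, and 31.1%, 40.7%, 51.5% and 62.0% in the 4 libraries with 5000, since more UMIs per cell detect more; at 16 months it was 48.0% without the highest Scrublet scores. No paired analysis was possible because each age is 1 library, as far as ages are compared; cell classes share a library and were contrasted within it, with no test, since clustering made them. Small classes, such as the 26 resting-like cells at 16 months, limit what can be compared.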

Other observations

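Mesenchymal cluster 16 of the 1 and 1.5 month libraries, 21 and 10 cells led by Prg4, the lubricin gene of the cartilage surface, and Tspan15 and Clic5 among others, met no naming rule. It held Sox5 at 275 CPM (209 to 356) from 58 UMIs at 1 month and 134 CPM (75.2 to 222) from 15 UMIs at 1.5 months, against 68.8 and 80.3 CPM in chondrocyte-like cells. Sox9 was at 33.2 and 53.7 CPM there, against 345 and 583 CPM in chondrocyte-like cells. Prg4 was at 19092 and 26766 CPM and Col2a1 at 199 and 1773 CPM. These cells were under the minimum of 30 per class and were singled out after their values were seen.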
